A study of Mus with 8 samples.

Results

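The 10 genes described here serve the presentation of cytosolic peptides on MHC class I molecules at the cell surface. They were taken from the count table by Ensembl gene ID, and all 10 of the 10 listed IDs were found among its 17640 IDs. They are the class I heavy chains H2-K1 (ENSMUSG00000061232) and H2-D1 (ENSMUSG00000073411) and their light chain B2m (ENSMUSG00000060802). The peptide transporter is represented by Tap1 (ENSMUSG00000037321) and Tap2 (ENSMUSG00000024339), and the loading step by Tapbp (ENSMUSG00000024308). The immunoproteasome is represented by Psmb8 (ENSMUSG00000024338), Psmb9 (ENSMUSG00000096727) and Psmb10 (ENSMUSG00000031897). Nlrc5 (ENSMUSG00000074151) encodes the transactivator of class I genes. The rule names the genes and uses no measured value, but the set was proposed with earlier results of these data known.

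In the class I pathway, proteasomes cut cytosolic proteins into peptides, and the transporter of Tap1 and Tap2 moves these into the endoplasmic reticulum. Tapasin, the product of Tapbp, holds empty heavy chain and B2m complexes at the transporter until a peptide binds, and the loaded complex is then shown to CD8 T cells. Interferon gamma, acting through JAK kinases and STAT factors, is a known inducer of the whole set. It also induces Nlrc5, which acts at class I, B2m, Tap1 and Psmb9 promoters. The interferon-inducible subunits Psmb8, Psmb9 and Psmb10 replace constitutive proteasome subunits, and monocytes and dendritic cells use this form of the proteasome.

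Jak2 V617F Vav-iCre and Vav-iCre control mice, both C57BL/6, gave the bone-marrow monocytes, which were held for 3 days in stiff gels meant to mimic fibrotic matrix. All cells also received GM-CSF at 100 ng/mL, IL4 at 200 ng/mL and PGE2 at 100 ng/mL, so control cells also carried the Cre and had the same additions. The mutation is a knock-in at the endogenous Jak2 locus, the Vav promoter drives Cre in blood-forming cells, and the labels give neither age nor sex. Elastic gels are marked NbTz and viscous gels VLVG in the titles, and elasticity and other properties of these gels cannot be told apart. The 4 groups were Jak2 V617F cells in elastic and in viscous matrix and control cells in elastic and in viscous matrix, with 2 libraries each. Library titles end in a number, written here as J1 and J2 for Jak2 V617F and W1 and W2 for control cells, and each number has 1 elastic and 1 viscous library. What a number marks is not stated, so p-values reflect library-to-library spread alone, and part of that may be technical.

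Libraries held 30632355 to 38408851 counts, of which the 10 genes together took 0.965% to 1.24%. Both control libraries of W1 stood apart on the first principal component of log2 CPM (41.5% of the variance, scores 78.2 and 69.4, against −37.1 to −10.9 in the other 6). Single member counts ran from 1101 (Psmb10, exact 95% Poisson interval 1037 to 1168, which covers counting error only) to 162161 (B2m). Counting error was thus small beside the range of each member over the libraries, but not beside the smallest differences. Psmb10 in W2, for example, stood at 37.4 CPM in elastic and 37.1 CPM in viscous matrix. Marker genes of monocytes and of other cell types were not analysed here, because apart from the listed members the gene IDs are not paired with names.

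On RefSeq's GRCm38.p6 annotation, 7 of the 10 genes lie on chromosome 17, 2 on chromosome 8 and 1 on chromosome 2. Psmb9 (chr17:34182030-34187330), Tap1 (chr17:34187556-34197225), Psmb8 (chr17:34198195-34201454) and Tap2 (chr17:34204479-34216321) follow each other within 34.3 kb, with no other annotated gene between them. Only 225 bases separate Psmb9 from Tap1, an interval known as a promoter shared by both genes. Tapbp (chr17:33919478-33929290) and H2-K1 (chr17:33996012-34000619) lie to one side of this cluster and H2-D1 (chr17:35263094-35267497) to the other. Nlrc5 (chr8:94434335-94527272) and Psmb10 (chr8:105935728-105938392) share chromosome 8, and B2m (chr2:122147687-122153082) stands alone. Annotated genes overlap Nlrc5, B2m and Tapbp, and the sources used here do not say whether counting used strand, so their counts may hold some reads of those genes.

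**Figure D1:**
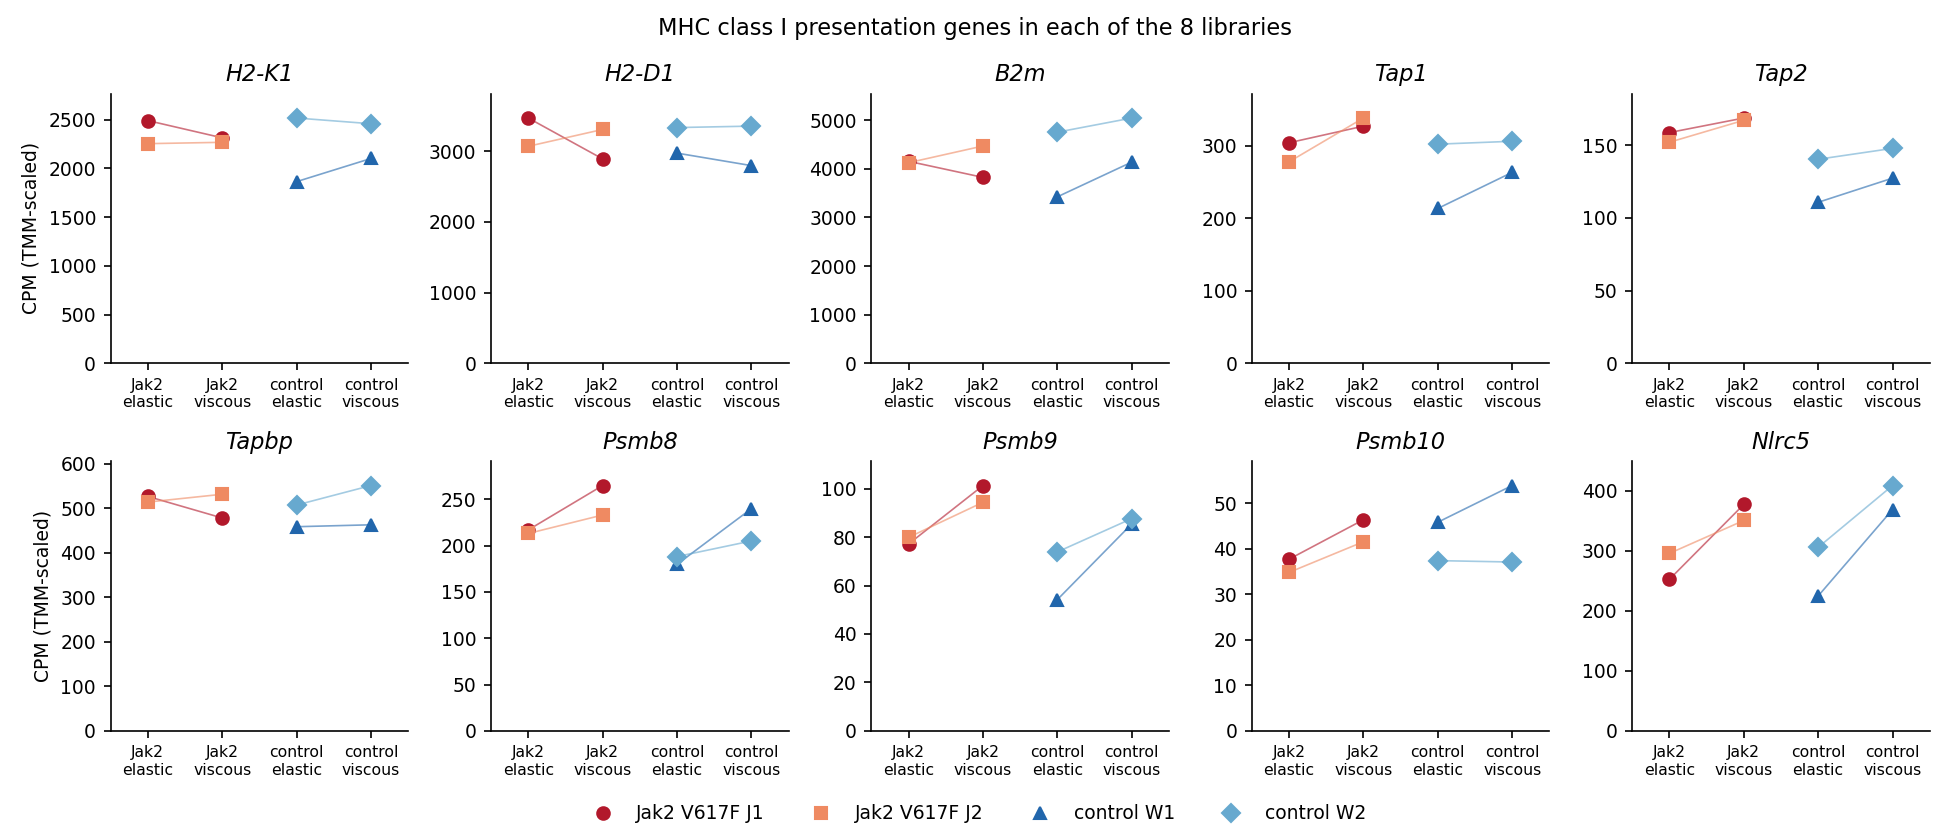
CPM (TMM-scaled, linear axes from 0) of each gene in the 8 libraries. Each symbol is 1 library and lines join the elastic and viscous library of a title number. Nlrc5 and Psmb9 are lower in every elastic library than in every viscous library, whereas H2-K1, H2-D1 and Tapbp overlap.

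The first comparison set elastic against viscous matrix over both genotypes, and the lowest values relative to viscous matrix were those of Nlrc5 and Psmb9. Values are counts per 1000000 counts of a library (CPM) after scaling of libraries by the trimmed mean of M values (TMM). In elastic matrix, Nlrc5 stood at 252 and 295 CPM in Jak2 V617F cells (J1 and J2) and at 225 and 306 CPM in control cells (W1 and W2). In viscous matrix it stood at 377 and 350.3 CPM in Jak2 V617F and at 369 and 409 CPM in control cells. No elastic library reached the lowest viscous one, and the level of Nlrc5 was lower by 1.40-fold, a log2 fold change of −0.48 (SE 0.14, 95% interval −0.81 to −0.15). By edgeR's quasi-likelihood test its adjusted p over all 14785 IDs was 0.609, so the difference was not called. In these bulk libraries, fewer cells of a type and less RNA per cell cannot be told apart.

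Psmb9, the catalytic subunit next to Tap1 on the chromosome, had the same layout. It stood at 77.2 and 80.0 CPM in Jak2 V617F and at 54.2 and 73.9 CPM in control cells in elastic matrix. In viscous matrix it stood at 101 and 94.4 CPM in Jak2 V617F and at 85.5 and 87.7 CPM in control cells. The elastic libraries again lay below all viscous ones, with control W1 the lowest. Its level was lower by 1.30-fold, a log2 fold change of −0.38 (SE 0.11, 95% interval −0.65 to −0.10, edgeR adjusted p = 0.672).

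The other immunoproteasome subunits were lower in elastic matrix by smaller amounts, and their groups overlapped. Psmb8 stood at 217 and 213 CPM in Jak2 V617F and at 179.9 and 188 CPM in control cells in elastic matrix, against 265 and 233 CPM in Jak2 V617F and 240.0 and 205 CPM in control cells in viscous matrix. Within each genotype no elastic library reached a viscous one, but viscous control W2 lay below both elastic Jak2 V617F libraries. The log2 fold change of Psmb8 was −0.24 (SE 0.10, 95% interval −0.48 to −0.0029, edgeR adjusted p = 0.788).

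Psmb10 stood at 37.7 and 34.8 CPM in Jak2 V617F and at 45.8 and 37.4 CPM in control cells in elastic matrix, against 46.3 and 41.5 CPM in Jak2 V617F and 53.9 and 37.1 CPM in control cells in viscous matrix. Control W1 gave the highest value of each matrix, and control W2 hardly differed between matrices. The log2 fold change was −0.20 (SE 0.14, 95% interval −0.55 to 0.14, edgeR adjusted p = 0.914). It was −0.055 without viscous control W1, −0.32 without viscous control W2 and −0.13 without elastic control W2.

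The transporter genes were lower in the elastic library of all 4 title numbers, but by little. Tap1 stood at 304 and 278 CPM in Jak2 V617F and at 214 and 303 CPM in control cells in elastic matrix, against 327 and 339 CPM in Jak2 V617F and 264 and 307 CPM in control cells in viscous matrix. Tap2 stood at 159 and 152 CPM in Jak2 V617F and at 111 and 140.2 CPM in control cells in elastic matrix, against 169 and 167 CPM in Jak2 V617F and 127 and 148 CPM in control cells in viscous matrix. For both genes the elastic and viscous ranges overlapped, and control W1 was lowest in each matrix. The log2 fold changes were −0.17 for Tap1 (95% interval −0.50 to 0.17) and −0.12 for Tap2 (95% interval −0.39 to 0.14), with edgeR adjusted p = 0.933 and 0.940. Without elastic control W1 they were −0.051 and −0.039, without elastic control W2 −0.30 and −0.21, and without viscous control W2 −0.11 and −0.063.

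The heavy chains had log2 fold changes close to 0. H2-K1 stood at 2491 and 2254 CPM in Jak2 V617F and at 1865 and 2518 CPM in control cells in elastic matrix, against 2314 and 2268 CPM in Jak2 V617F and 2102 and 2459 CPM in control cells in viscous matrix. H2-D1 stood at 3470.0 and 3069.9 CPM in Jak2 V617F and at 2973 and 3335 CPM in control cells in elastic matrix, against 2892 and 3308 CPM in Jak2 V617F and 2797 and 3356 CPM in control cells in viscous matrix. The libraries of the matrices were interleaved for both genes.

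The log2 fold change was −0.0037 for H2-K1 (95% interval −0.41 to 0.40, edgeR adjusted p = 1.00) and 0.057 for H2-D1 (95% interval −0.35 to 0.46, edgeR adjusted p = 0.987). These genes are near-identical in parts of their sequence, and Salmon divides reads that match both by estimation. Summed into 1 row, which such a division cannot move, they gave a log2 fold change of 0.031 (SE 0.19, 95% interval −0.42 to 0.48, edgeR adjusted p = 0.996). H2-D1 took 55.5% to 61.5% of this sum in the 8 libraries.

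B2m and Tapbp also overlapped between matrices. B2m, the light chain of every class I molecule, stood at 4155 and 4127 CPM in Jak2 V617F and at 3425 and 4755 CPM in control cells in elastic matrix, against 3824 and 4470.0 CPM in Jak2 V617F and 4139 and 5046 CPM in control cells in viscous matrix. Tapbp stood at 526 and 513 CPM in Jak2 V617F and at 458 and 507 CPM in control cells in elastic matrix, against 478 and 531 CPM in Jak2 V617F and 462 and 551 CPM in control cells in viscous matrix. The log2 fold changes were −0.085 for B2m (95% interval −0.56 to 0.39, edgeR adjusted p = 0.983) and −0.013 for Tapbp (95% interval −0.29 to 0.27, edgeR adjusted p = 0.997). The directions of H2-K1, H2-D1, B2m and Tapbp each flip when single libraries are left out. That of H2-K1 also flips with DESeq2 size factors (0.0062).

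**Figure D2:**
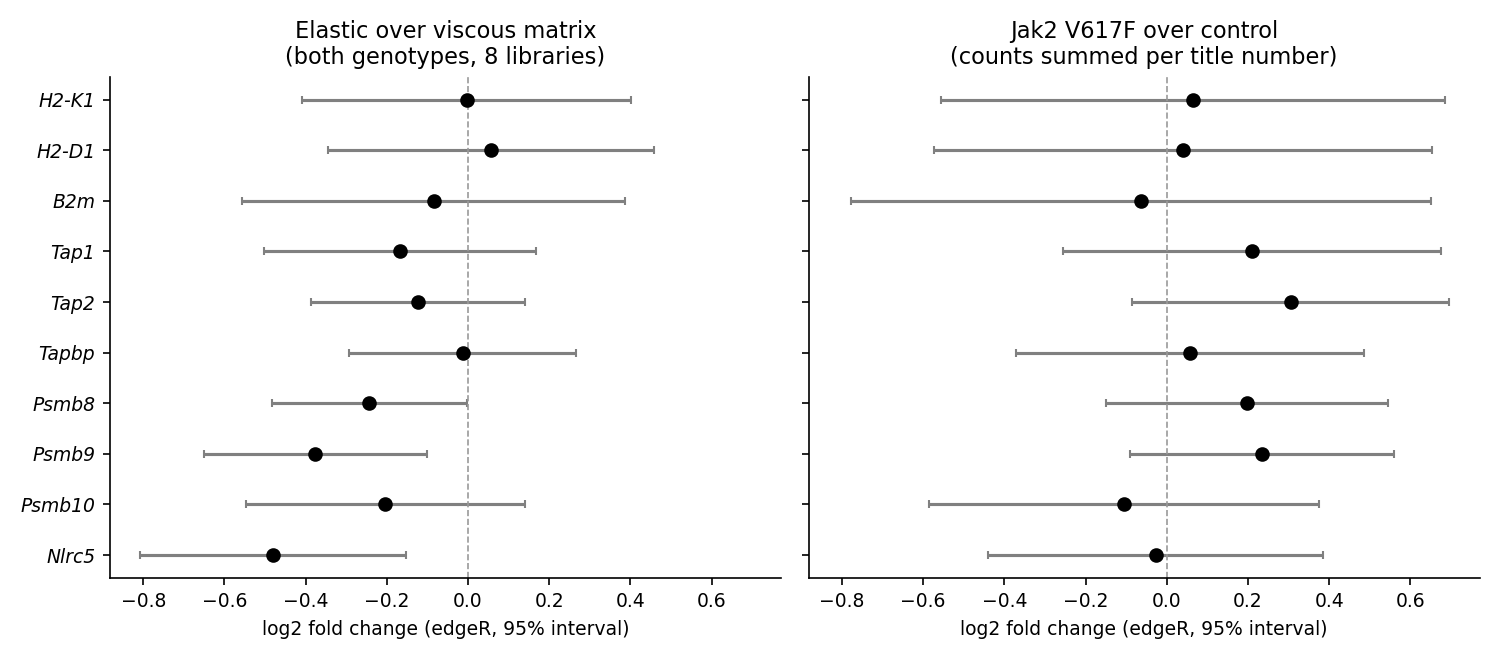
Log2 fold changes by edgeR with 95% intervals (bars) for elastic over viscous matrix (left, 8 libraries) and Jak2 V617F over control cells (right, 2 sums of counts against 2). On the left the intervals of Psmb8, Psmb9 and Nlrc5 lie below 0, with Nlrc5 the lowest at −0.48, and on the right every interval includes 0.

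Over the 10 genes, 9 had a negative and 1 a positive log2 fold change, where 51.0% of all 14785 IDs tested were negative. The median of the 10 was −0.15, against a median of −0.0043 over all IDs tested. By edgeR, 0 of the 10 were called at an adjusted p under 0.05, where 0% of all IDs were called. At an unadjusted p under 0.05 there were 3 members, Psmb8, Psmb9 and Nlrc5, all lower in elastic matrix, where 3.38% of all IDs were lower at that level. DESeq2 also called 0 members (0.906% of all IDs), and limma-voom called 0 (0% of all IDs). Psmb9 and Nlrc5 were the 2 members for which every elastic library lay below every viscous library, as did 1.66% of all IDs. The median of the members was −0.21 without elastic control W2, −0.045 without elastic control W1, and −0.099 without both libraries of W1.

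In Jak2 V617F cells alone, 6 members had both elastic libraries below both viscous ones: Tap1, Tap2, Psmb8, Psmb9, Psmb10 and Nlrc5. With 2 libraries a side this layout is frequent, and 20.6% of all IDs showed it. The log2 fold changes of these 6 were −0.41 for Nlrc5 (SE 0.19), −0.32 for Psmb9 (SE 0.16), −0.28 for Psmb10 (SE 0.20), −0.21 for Psmb8 (SE 0.14), −0.19 for Tap1 (SE 0.20) and −0.11 for Tap2 (SE 0.16). Without elastic J2, Tap1 was at −0.12 and Tap2 at −0.073, and without viscous J1 Psmb8 was at −0.12. The other 4 lay between −0.0022 (B2m) and 0.077 (H2-D1), and the median of the 10 was −0.15, against −0.011 over all IDs. edgeR called 0 members (0% of all IDs) and gave 0 an unadjusted p under 0.05 (3.08% of all IDs), with an adjusted p of 1 for each. DESeq2 called 0 members (0.237% of all IDs), and limma-voom called 0 (0% of all IDs). Without elastic Jak2 V617F J2 the median was −0.096.

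In control cells, the 3 lowest members were Nlrc5, Psmb9 and Psmb8. The log2 fold changes were −0.55 for Nlrc5 (SE 0.19, 95% interval −1.01 to −0.090), −0.43 for Psmb9 (SE 0.16, 95% interval −0.82 to −0.046) and −0.27 for Psmb8 (SE 0.14, 95% interval −0.61 to 0.065), each with an edgeR adjusted p of 0.985. For these 3 members both elastic libraries lay below both viscous ones, as for 13.8% of all IDs. Without elastic control W1 the values were −0.34 for Nlrc5 and −0.22 for Psmb9, and without elastic control W2 they were −0.79 and −0.67. Psmb8 was at −0.15 without viscous control W1. edgeR called 0 members (0% of all IDs), and Psmb9 and Nlrc5 were the 2 members at an unadjusted p under 0.05 and lower in elastic matrix (2.54% of all IDs). DESeq2 called 0 (again 0.237% of all IDs) and limma-voom 0 (0% of all IDs). The median of the 10 was −0.14, against 0.0011 over all IDs, and it rested on single libraries. It was −0.31 without elastic control W2, 0.019 without elastic control W1, −0.020 without viscous control W2, and −0.078 without both libraries of W1.

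**Figure D3:**
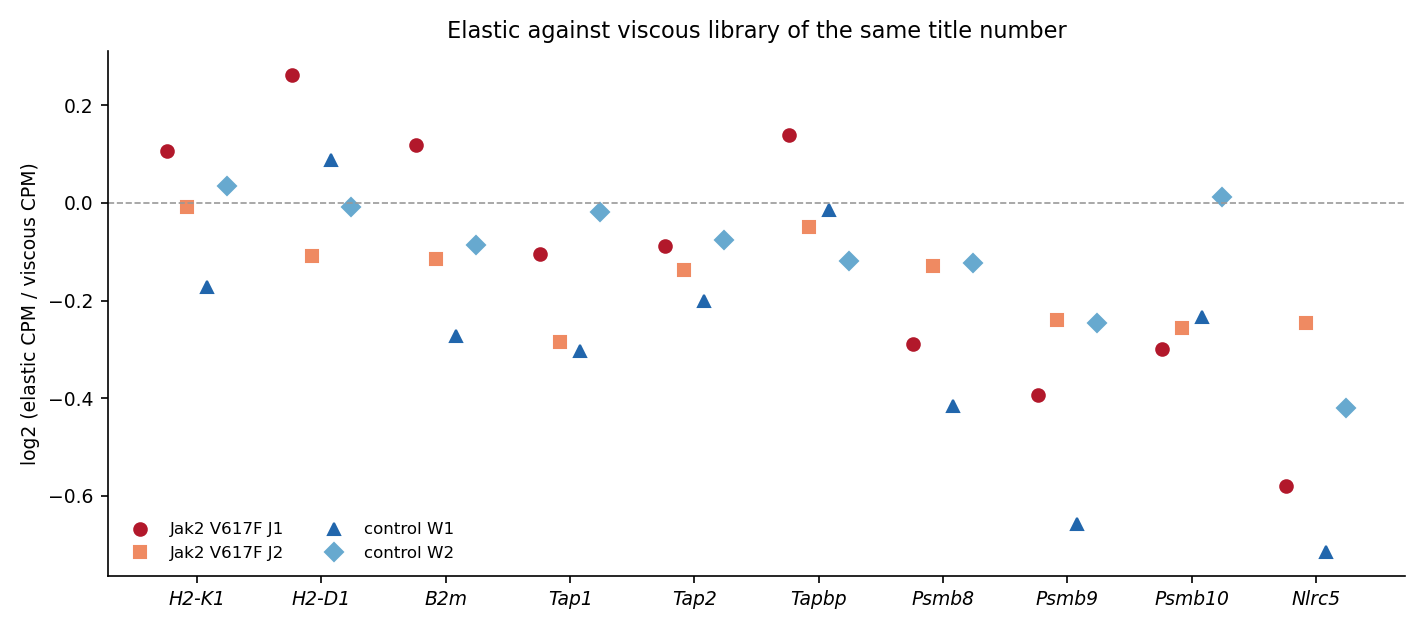
Log2 ratio of elastic to viscous CPM within each title number (vertical axis) for each gene, with 1 symbol for each of the 4 numbers and a dashed line at 0. All 4 numbers lie below 0 for Tap1, Tap2, Psmb8, Psmb9 and Nlrc5, and Nlrc5 runs from −0.71 to −0.25. The share of all IDs with this layout was not counted.

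Within title numbers, the ratio of elastic to viscous CPM was below 1 in all 4 numbers for Tap1, Tap2, Psmb8, Psmb9 and Nlrc5. The share of all IDs with this layout was not counted, so it is a description only. For B2m, Tapbp and Psmb10 it was below 1 in 3 of the 4, and for H2-K1 and H2-D1 in 2 of the 4. For Nlrc5 the log2 ratios were −0.58 in J1 and −0.25 in J2 (Jak2 V617F), and −0.71 in W1 and −0.42 in W2 (control). For Psmb9 they were −0.39 and −0.24 in Jak2 V617F cells and −0.66 and −0.25 in control cells, in the same order of numbers. For both genes the ratios of the genotypes overlapped.

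The difference of the matrix effects asks whether the mutation alters the response to the matrix. The Jak2 V617F matrix effect less the control one was 0.14 for Nlrc5 (SE 0.27, 95% interval −0.51 to 0.79) and 0.12 for Psmb9 (SE 0.23, 95% interval −0.43 to 0.67). Both edgeR adjusted p-values were 1.00, and the intervals leave room for differences of 0.5 log2 units either way for Nlrc5. Without elastic control W1 the differences were −0.067 for Nlrc5 and −0.093 for Psmb9, and without elastic control W2 they were 0.38 and 0.36. edgeR called 0 of the 10 members (0% of all IDs) and gave 0 an unadjusted p under 0.05 (1.72% of all IDs). DESeq2 called 0 members (0.0135% of all IDs) and limma-voom 0 (0% of all IDs). The median over members was 0.085, against −0.029 over all IDs, and it was −0.061 without elastic control W1 and 0.21 without elastic control W2.

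Genotypes were compared over both matrices with the counts of each title number summed, 2 Jak2 V617F sums against 2 control sums. Tap2 was the member with the largest log2 fold change, and the 4 Jak2 V617F libraries, at 152 to 169 CPM, all lay above the 4 control libraries, at 111 to 148 CPM. It was the 1 member of the 10 with that layout, which 3.5% of all 15239 IDs showed. Tap2 was 1.24-fold higher in Jak2 V617F cells (log2 fold change 0.31, SE 0.14, 95% interval −0.085 to 0.70, edgeR adjusted p = 0.792). Without control W2, when the libraries of W1 alone stood for control cells, the log2 fold change was 0.46 (edgeR adjusted p = 0.0460), in a fit that called 16.6% of all 16004 IDs. Without W1 it was 0.17.

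Its neighbours in the chromosome 17 cluster were also higher in Jak2 V617F sums. The log2 fold changes were 0.23 for Psmb9 (SE 0.12), 0.21 for Tap1 (SE 0.17) and 0.20 for Psmb8 (SE 0.13), with edgeR adjusted p = 0.792, 0.820 and 0.797. Without W1 they were 0.14 for Psmb9 and 0.046 for Tap1, and without W2 Tap1 was at 0.40. The other 6 members lay between −0.11 (Psmb10) and 0.064 (H2-K1), and Nlrc5 was at −0.027. edgeR called 0 members (0% of all IDs) and gave 0 an unadjusted p under 0.05 (5.22% of all IDs). DESeq2 called 0 members (0.696% of all IDs) and limma-voom 0 (0% of all IDs). The median over the members was 0.061, against −0.0049 over all IDs, and it was 0.00079 without control W1 and 0.17 without control W2.

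Within elastic matrix, 4 members had both Jak2 V617F libraries above both control libraries, against 17.2% of all IDs. They were Tap2 (log2 fold change 0.31, SE 0.16), Psmb9 (0.29, SE 0.16), Psmb8 (0.22, SE 0.14) and Tapbp (0.11, SE 0.17). Without elastic control W1 they were 0.15 for Tap2, 0.087 for Psmb9 and 0.036 for Tapbp, and without elastic control W2 they were 0.49, 0.54 and 0.18. edgeR called 0 members (0% of all IDs), with 0 at an unadjusted p under 0.05 (4.42% of all IDs). DESeq2 called 0 (0.298% of all IDs) and limma-voom 0 (0% of all IDs). The median over the 10 members was 0.11, against −0.0099 over all IDs. It was −0.037 without elastic control W1 and 0.28 without elastic control W2, so its direction depended on which control library was kept.

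Within viscous matrix, 3 members had that layout, against 18.6% of all IDs. They were Tap2 (log2 fold change 0.29, SE 0.16), Tap1 (0.22, SE 0.20) and Psmb9 (0.18, SE 0.16). Without viscous control W1, Tap2 was at 0.19 and Tap1 at 0.12, and without viscous control W2 Tap1 was at 0.34. edgeR called 0 members (0% of all IDs), with 0 at an unadjusted p under 0.05 (7.31% of all IDs). DESeq2 called 0 (0.413% of all IDs) and limma-voom 0 (0% of all IDs). The median over the members was 0.0089, against −0.0087 over all IDs, and 0.13 without viscous control W2.

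A ratio of counts within 1 library does not depend on library scaling. Nlrc5, Psmb9, Tap1 and B2m were therefore also set against the heavy chains. This measure was chosen after the values were seen and carries no test. Per 100 counts of H2-K1 and H2-D1, elastic libraries held 4.23 and 5.55 Nlrc5 counts in Jak2 V617F cells (J1 and J2) and 4.64 and 5.22 in control cells (W1 and W2). Viscous libraries held 7.24 and 6.28 in Jak2 V617F cells and 7.52 and 7.03 in control cells. The elastic libraries lay below all viscous ones. Both measures use the same Nlrc5 counts, so this layout is not independent of the layout in CPM. How many of all IDs would separate in this ratio was not counted.

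For Psmb9 this ratio was 1.30 and 1.50 in Jak2 V617F and 1.12 and 1.26 in control cells in elastic matrix, against 1.95 and 1.69 in Jak2 V617F and 1.75 and 1.51 in control cells in viscous matrix. The elastic Jak2 V617F library of J2 and the viscous control library of W2 nearly met. Tap1 stood at 5.11 and 5.22 in Jak2 V617F and at 4.42 and 5.17 in control cells in elastic matrix. In viscous matrix it stood at 6.29 and 6.07 in Jak2 V617F and at 5.38 and 5.27 in control cells. In this ratio all elastic libraries lay below all viscous ones for Tap1, with J2 and W2 nearly meeting, whereas in CPM they overlapped. B2m stood at 69.7 and 77.5 in Jak2 V617F and at 70.8 and 81.2 in control cells in elastic matrix, against 73.5 and 80.2 in Jak2 V617F and 84.5 and 86.8 in control cells in viscous matrix. It was lower in the elastic library of each title number, while the libraries of the matrices overlapped.

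**Figure D4:**
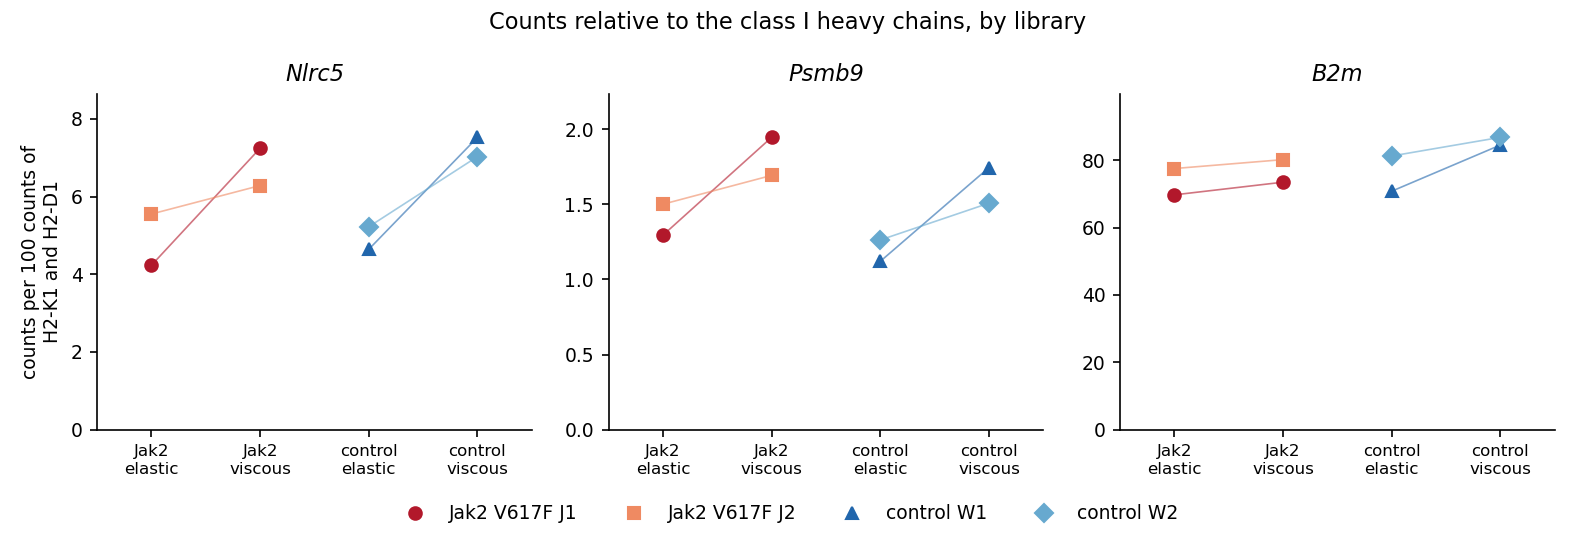
Counts of Nlrc5, Psmb9 and B2m per 100 counts of H2-K1 and H2-D1 in each library (linear axes from 0). Symbols are libraries and lines join those of a title number. For Nlrc5 the elastic libraries run from 4.23 to 5.55 and the viscous ones from 6.28 to 7.52.

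Across libraries the 10 genes did not vary as a single block. Pearson correlations of log2 CPM were computed for the 45 pairs as a description. The 8 libraries share 4 title numbers and 1 scaling, and the median r was 0.46, with a range from −0.79 (Tapbp and Psmb10) to 0.93 (Tap1 and Tap2). Psmb10 was below 0 with 6 of the other 9 genes. Both libraries of W1 were the lowest of their matrix in H2-K1, H2-D1, Tap1, Tap2, Tapbp and Psmb9, and the highest in Psmb10.

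Without these, over 6 libraries, the genes fell into sets, which were named after the values were seen. H2-K1, H2-D1, B2m and Tapbp had r of 0.25 to 0.78 with each other. Tap1, Tap2, Psmb8, Psmb9 and Psmb10 had r of 0.59 to 0.94 with each other. All 20 pairs between these sets had an r below 0 (−0.74 to −0.039), whereas over the 8 libraries 7 of the 20 did. These r values pool the groups, so the matrix and genotype differences given above enter them. The share of such pairs among all IDs was not counted. Nlrc5 was nearest to Psmb9, with r = 0.85 over 8 and 0.73 over 6 libraries.

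**Figure D5:**
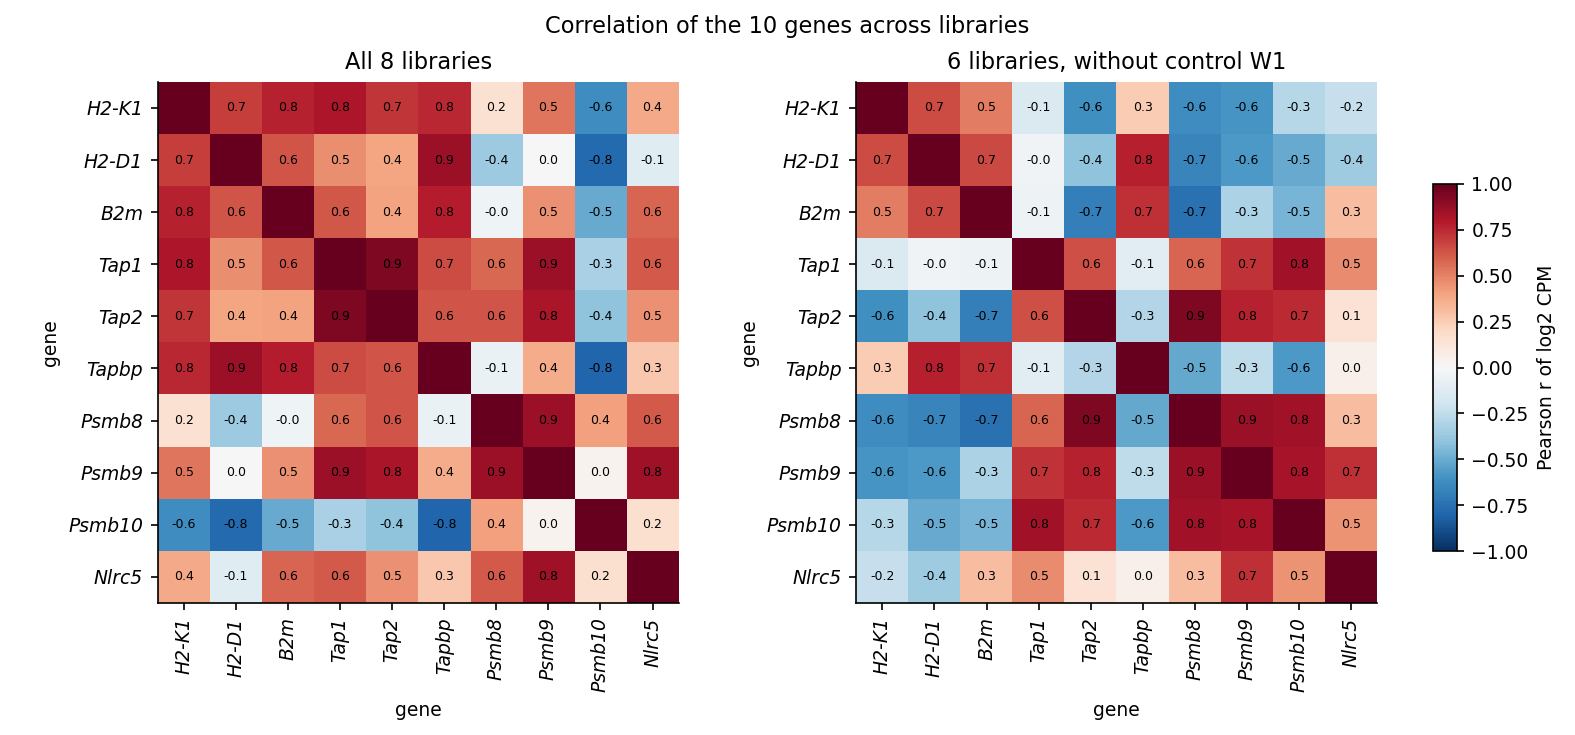
Pearson r of log2 CPM (colour and printed value) between each pair of genes over 8 libraries (left) and over the 6 without control W1 (right). On the right, H2-K1, H2-D1, B2m and Tapbp are red with each other and blue with the transporter and immunoproteasome genes.

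Against the mean centred log2 CPM of the 10 members, the highest r among members was that of Psmb9 (0.96) and the lowest that of Psmb10 (−0.12). Each member is itself part of that mean, so its r is not independent of it. Of the IDs outside the set, ENSMUSG00000041827 (r = 0.98) and ENSMUSG00000095125 (r = 0.96) were nearest over the 8 libraries. They were picked as the highest among the 14785 IDs tested. Their names are not given in the sources used here.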

How the data were processed

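RNA was measured in 8 libraries. The submitters' processing notes name Salmon, the build GRCm38 and DESeq2, with no order and no versions. The deposited table holds raw whole-number counts for Ensembl gene IDs, and all 8 single-library files equalled it. Its smallest sum over an ID was 10. The sources used here do not say how the authors summed genes, rounded the counts or used strand. Symbols of the 10 members came with the definition of the set, and positions came from RefSeq's GRCm38.p6 table, matched by symbol. That table pairs 0 of its 49997 genes with an Ensembl ID, so other pathway genes and cell markers were not tested.

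Counts were analysed across all genes with edgeR 4.0.16 (R 4.3.3): filterByExpr (14785 IDs; 15239 for sums per title number), TMM scaling and a quasi-likelihood fit of 4 group means to all 8 libraries. Tests were two-sided, with Benjamini-Hochberg adjustment over all IDs and a threshold of 0.05. SE came from the test statistic, intervals are 95%, and a prior count of 2 entered log2 CPM. Alternatives were other scalings and filters, DESeq2 1.42.0, limma-voom (limma 3.58.1), left-out libraries, title number as a block, only the libraries compared, genotype averaged over 8 libraries, and H2-K1 and H2-D1 summed. Replicates all differed beyond counting noise, with a chi-square per degree of freedom between 19.1 and 262. edgeR, DESeq2 and limma were also run on simulated counts with planted matrix effects larger than those of the members. The simulation held no genotype effect and no title-number structure, so it does not bear on the member results. Figures used matplotlib 3.10.9. All 10 members were named by rule, and members, lists and tests were chosen with earlier results of these data known.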

Additional observations from a re-analysis of the deposited data

How the results depend on the processing

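DESeq2 without 1 control number, the heavy chain ratios and the gene sets in the correlations were chosen after seeing the data. Most alternative fits called few of all IDs. For matrix over both genotypes, limma-voom and edgeR with other scalings called 0 of 14785, and DESeq2 134. A count of 0 members is therefore no result about these genes. Of 131 alternative counts of called members, 128 were 0. The exceptions left out control W2, so that W1 alone stood for control cells: DESeq2 called 2 members for matrix over both genotypes (Nlrc5, adjusted p = 0.00220, and Psmb9, 0.0120; 1.71% of all IDs) and 3 for genotype in elastic matrix (12.2% of all IDs), and edgeR called 1 (0 to 1 with 1 sum left out) on summed counts, Tap2 (16.6% of all IDs). Over 20 alternatives the log2 fold change of Nlrc5 for matrix over both genotypes ran from −0.60 to −0.38 (adjusted p 0.00220 to 1.00) and that of Psmb9 from −0.50 to −0.27 (0.0120 to 1.00); without both libraries of W1 they were −0.41 and −0.28. The 608 alternative values of single members cover only members singled out in a comparison, not every member in each. For matrix in Jak2 V617F cells, H2-K1, H2-D1, B2m and Tapbp were not among them. Of the 608, 22 changed sign and 5 passed the threshold that the original missed, and sign changes over all members were not counted. For matrix over both genotypes, H2-K1 reversed to 0.0062 (DESeq2 size factors, and DESeq2), 0.0011 (no filter), 0.043 (without W1; 0.048 by DESeq2) and 0.031 (summed with H2-D1). Tapbp reversed to 0.012 without W2 (0.021 by DESeq2). With 1 library left out, ranges were −0.12 to 0.099 for H2-K1, −0.073 to 0.055 for Tapbp, −0.0055 to 0.13 for H2-D1 and −0.21 to 0.026 for B2m. The difference of matrix effects was −0.093 to 0.36 for Psmb9 (−0.073 without W1, −0.072 by DESeq2) and −0.067 to 0.38 for Nlrc5. Of 131 alternative medians over the members, 17 moved by more than the spread between replicates (0.10). With 1 library or sum left out, medians ran from −0.31 to 0.019 for matrix in control cells, −0.061 to 0.21 for the difference, −0.037 to 0.28 for genotype in elastic matrix, 0.011 to 0.13 in viscous matrix and 0.00079 to 0.17 on summed counts. Without both libraries of W2 they were −0.26 (DESeq2 −0.25), 0.29 (DESeq2 0.29) and 0.14 (DESeq2 0.13) for matrix in control cells and genotype in elastic and in viscous matrix. Without W1, genotype in elastic matrix gave −0.038 (DESeq2 −0.031). The cause was not tested. Fits with 1 library in a group assume that it varies like the other groups. The median of all IDs shifted by 0.022 at most under other scalings.

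A fixed replicate block for the title number left edgeR with 0 called members in the 4 matrix contrasts. Under limma-voom with that block random (correlation 0.38), 0 members were called, where 0 to 2 of all 14785 IDs were. Nlrc5 then stood at −0.49 (adjusted p = 0.201 and 0.199) over both genotypes. Over all IDs the fixed block raised the calls there to 5, against 0. Deviations from group means correlated at 0.53 between same-numbered control libraries and at −0.089 between Jak2 V617F ones; no label says that a number pairs libraries.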
